A study of Mus musculus with 6 samples.

Results

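Absolute transcript signals were described in 3 NIH3T3 cell lines that carried an empty expression vector, titled ΔccdB-1, ΔccdB-2 and ΔccdB-3 and called control 1, control 2 and control 3 here. They were chosen by their titles and made up 3 of the 6 samples of the series. NIH3T3 is an immortalized fibroblast line from embryos of NIH Swiss mice. The control lines had been stably transfected with pEF-DEST51, a plasmid with the promoter of elongation factor 1alpha, from which the bacterial gene ccdB had been removed. The remaining 3 samples were clones with human FEAT in pEF-DEST51 and were not used. Each control line had 1 array of total RNA, so the error below is the spread between 3 lines of the same parent, in which differences between lines and between arrays cannot be told apart. No untransfected NIH3T3 sample was analysed here. The sources used here do not say whether the control lines were selected with a drug or whether each came from a single colony.

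Fibroblasts are connective tissue cells that make collagens, fibronectin and other parts of the extracellular matrix. They divide in response to growth factors in serum, among which platelet-derived growth factor acts through the receptor tyrosine kinases PDGFRα and PDGFRβ. A receptor tyrosine kinase binds its ligand outside the cell, pairs with another receptor molecule and phosphorylates tyrosines inside the cell. NIH3T3 became a standard line for tests of transforming genes, and it is known to lack the INK4a/ARF locus, which encodes inhibitors of the cell cycle.

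Each array gave a linear intensity for 45281 probes, with the background still in it. For control 1, control 2 and control 3 in turn, intensities averaged 717, 652 and 652 over all probes, with medians of 87.4, 83.0 and 81.9. Most probes sat in a narrow background peak, with its mode at 74.8, 71.6 and 70.7. A probe was called above background where it exceeded the mode by 3 SDs of the values below the mode on the log2 scale, which put the limit at 97.7, 92.2 and 91.4. Across the 45281 probes, the log2 intensities of the lines correlated with Pearson's r between 0.992 and 0.995 for the 3 pairs. These are correlations over probes, which are not independent replicates.

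**Figure D1:**
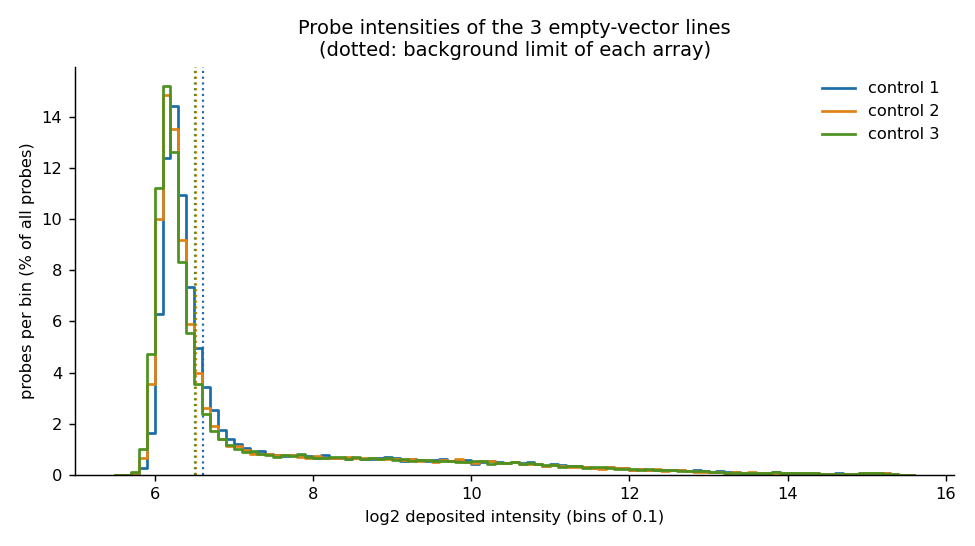
Histogram of the log2 deposited intensities of 45281 probes on the 3 control arrays, in percent of probes per bin of 0.1, with each array's background limit as a dotted line. The background peaks lie within a small distance of each other, with modes of 74.8, 71.6 and 70.7, and a long tail of brighter probes runs to the highest value of 47056.

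Of all probes, 16829 (37.2%) were above the limit on all 3 arrays and 24803 (54.8%) were below it on all 3. Of 19057 named genes, 9073 (47.6%) were above the limit on all 3 arrays by their brightest probe, 8450 (44.3%) were below it on all 3, and 1534 (8.05%) were above it on some arrays only. Among the genes above the limit, 332 had a mean intensity of 10000 or more, 3127 lay between 1000 and 10000, and 1965 were dimmer than 200. The olfactory, vomeronasal and taste receptors, whose known sites of expression are sensory tissues, gave a measure of how often such probes pass. Of their 1543 probes, 11 (0.713%) were above the limit on all 3 arrays, and 2.53% to 2.72% were above it on a given array. A gene below the limit was not detectable with its probe, which does not show that the transcript was absent. Of 5605 genes with several probes that were above the limit by the brightest of them, 2758 (49.2%) had another probe below it on all 3 arrays. Intensities of different probes depend on the probe as well as on the transcript, so the values below describe each gene against the limit and between lines, and set no gene's transcript number against another's.

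All 6 fibroblast markers were above the limit on all 3 arrays, against 47.6% of all named genes. Sparc, a matrix glycoprotein that binds collagen, read 23200.0, 18057 and 17515 in control 1, control 2 and control 3. Fn1, which encodes fibronectin, read 4760.3, 4838 and 5579.9, and Col1a1, the alpha 1 chain of type I collagen, read 3619, 4948 and 3755. Control 1 was the brightest line for Sparc, control 2 for Col1a1 and control 3 for Fn1. Col1a2, the partner chain of type I collagen, read 392, 376 and 349. The PDGF receptor genes Pdgfra and Pdgfrb read 759.6, 644 and 875 and 509.7, 239 and 448. Control 2 was the dimmest line for both. A second probe of Pdgfra was below the limit in every line, at 88.5, 88.2 and 75.5.

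Of all 39 measured genes on the fibroblast and mesenchymal list, 30 (76.9%) were above the limit on all 3 arrays. They included the intermediate filament gene Vim, with a mean intensity of 22908 ± 1408 (SD, n = 3 lines), P4hb, a subunit of the enzyme that hydroxylates collagen prolines, with 20423 ± 2229, and Lox, which crosslinks collagen and elastin, with 13558 ± 4532. Lox ranged more widely between the lines, at 12742, 18444 and 9489. Of 11 measured mesenchymal transcription factors, 9 were above the limit, led by Twist2 (4407 ± 369.8), Snai2 (2022 ± 281), Prrx1 (1982 ± 288) and Zeb1 (1870.1 ± 81.4). Below the limit in every line were 8 members of the list. Among them were the small proteoglycan lumican (Lum, 67.4, 69.4 and 76.7), periostin (Postn, 83.3, 74.1 and 64.9), the fibroblast activation protein Fap (80.4, 88.9 and 77.4) and the cadherin gene Cdh11 (97.2, 82.4 and 88.2). The transcription factors Tcf21 and Meox1 were also below the limit in every line. The peptidase gene Dpp4 was above it on 1 array, at 90.3, 89.1 and 97.6. All 6 given markers and 76.9% of the longer list were above the limit, beside 47.6% of all named genes. The lists were chosen with earlier results of these data known, so these shares do not test the fibroblast label.

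The brightest probes belonged to genes of protein synthesis, the cytoskeleton and energy metabolism. Of the 25 genes with the highest mean intensity, 11 encoded cytosolic ribosomal proteins, and so did 36 of the 100 brightest. The array named 62 such genes, and 55 were above the limit on all 3 arrays, beside 47.6% of all named genes. Rps4x, a protein of the small ribosomal subunit, had the highest mean of any gene, at 44471 ± 2712 (SD, n = 3 lines), and read 44711, 41647 and 47056. Other genes among the 25 were the translation factor subunit Eef1g (35820.5 ± 2172), the nucleolar chaperone Npm1 (36841 ± 2248), the RNA-binding protein Ybx1 (39446 ± 2534) and the ATP synthase genes Atp5g3 (40093 ± 1488) and Atp5b (36775 ± 3546). The tubulin gene Tuba1b read 38031 ± 3238, the glycolytic enzyme gene Pkm 36332 ± 4816 and the prolyl isomerase gene Ppia 36547 ± 972.

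Several of the 25 brightest genes are known for calcium binding, metal binding or secretion. S100a11, a calcium-binding protein, read 45028, 40531 and 45663. Anxa2, an annexin that binds membranes in the presence of calcium, read 41331, 40326 and 37966. Mt1, a metallothionein that binds zinc and copper, read 38964, 40969 and 41132. Mif, a secreted cytokine, read 38267, 39464 and 37809. Over the 25 genes the SD between lines was at most 13.3% of the mean, and over all genes above the limit its median was 10.9%.

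**Figure D2:**
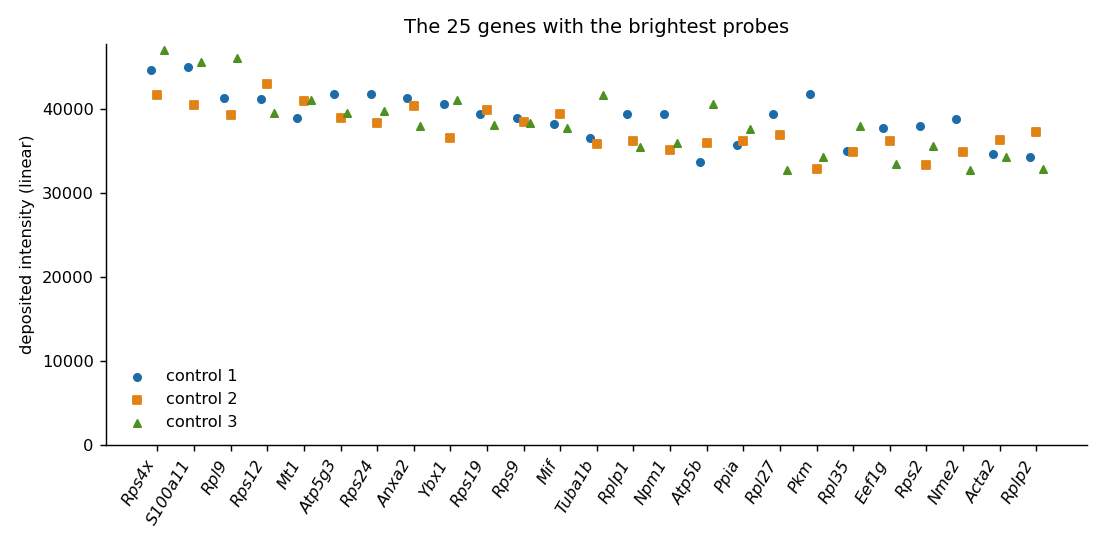
Deposited intensity, on a linear axis from 0, of the 25 genes with the highest mean over the 3 control arrays, 1 point per line. The gene means run from 34822 to 44471, and the order shows probe brightness, not transcript number.

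Promoter sequence, which the intensities did not use, was described for detected and undetected genes. Sequences came from RefSeq on GRCm38.p6, with 250 bases before and 50 after each annotated start. They covered 7415 of the genes above the limit, with 9507 promoters, and 6620 of those below it, with 7709. The following examples show the 60 bases before the start, 5′ to 3′. Capitals mark GGGCGG or its reverse complement CCGCCC, the core of the GC box bound by SP1, and TATAAA or its reverse complement, a form of the TATA box. Rps4x, S100a11 and Rpl9 are shown as the 3 brightest genes. Anxa2, among the brightest 25, and the mesenchymal gene Vim are shown because they hold TATAAA, and so are Fabp1 and Cebpa, of gut and fat cells, which were below the limit in every line. The last 4 were chosen after their motifs were seen.
Rps4x, chrX:102189392-102189451, minus strand: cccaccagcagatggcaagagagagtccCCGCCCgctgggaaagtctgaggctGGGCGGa
S100a11, chr3:93520436-93520495, plus strand: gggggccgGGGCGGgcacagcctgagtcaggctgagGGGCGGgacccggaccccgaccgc
Rpl9, chr5:65391432-65391491, minus strand: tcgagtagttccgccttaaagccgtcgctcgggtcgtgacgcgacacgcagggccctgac
Anxa2, chr9:69453623-69453682, plus strand: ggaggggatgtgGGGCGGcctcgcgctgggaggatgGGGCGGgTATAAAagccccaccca
Vim, chr2:13574251-13574310, plus strand: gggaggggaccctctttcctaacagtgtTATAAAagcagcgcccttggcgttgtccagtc
Fabp1, chr6:71199819-71199878, plus strand: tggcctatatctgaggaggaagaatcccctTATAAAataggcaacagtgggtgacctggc
Cebpa, chr7:35119233-35119292, plus strand: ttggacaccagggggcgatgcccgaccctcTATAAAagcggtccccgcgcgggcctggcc

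GGGCGG on either strand within 250 bases before the start was found in 59.3% of the promoters of genes above the limit, in 29.4% of those below it and in 32.7% of all 32851 promoters in the table. All promoters came from 27025 genes, which include genes mixed between arrays and genes without a named probe. Shares over all promoters are thus not shares over the genes measured here. GGGCGG stood in 52.3% of the 107 promoters of the 100 brightest genes for which the table had any. The median number of CG dinucleotides in the 300 bases was 21 for genes above the limit and 6 for genes below it, against 7 over all promoters. TATAAA on either strand within the same 250 bases was found in 6.36% of promoters above the limit, 16.2% below it, 12.4% overall and 10.3% for the 100 brightest genes. Counted only on the gene's strand between 40 and 16 bases before the start, it stood in 1.04%, 3.98%, 1.99% and 3.74%. The 100 brightest genes thus lay below all promoters by the first count and above them by the second, which rests on 4 promoters. CCAAT on either strand stood in 36.0% of promoters above the limit, 33.9% below it, 33.8% overall and 37.4% for the 100 brightest genes. Many genes of translation are known to carry a pyrimidine run at the start. CTTTTC within 10 bases of the start, on the gene's strand, stood in 0.515% of promoters above the limit, 0.506% below it and 0.636% overall. For the 100 brightest genes it stood in 1.87% of 107 promoters, a share that rests on very few promoters. None of these motifs contains another. In receptor tyrosine kinase genes, GGGCGG stood in 72.7% of 22 promoters above the limit and in 64.3% of 28 below it. These matches describe letters in a window around annotated starts, and binding was not measured. The split by the limit was added after the data were seen.

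Markers of other cell types were mostly at background. Over 13 lists with 177 measured genes, 35 (19.8%) were above the limit on all 3 arrays and 117 were below it on all 3, while 47.6% of all named genes were above. Hepatocyte and gut genes gave 0 of 13 above the limit, and melanocyte genes 0 of 6. Endothelial genes gave 1 of 14, neuronal genes 1 of 14, cardiac genes 1 of 11 and pluripotency and germ cell genes 1 of 16. Defining genes of several cell types were undetectable in all 3 lines, among them Pecam1 (89.0, 84.3 and 74.4) and Cdh5 (86.6, 85.0 and 86.9) of endothelium, Rbfox3 (82.8, 76.6 and 82.7) and Snap25 (71.6, 71.9 and 66.5) of neurons, and Ptprc (80.1, 72.5 and 76.5) and Spi1 (80.5, 86.1 and 83.8) of blood cells. The same held for Alb (75.7, 72.7 and 71.2) of hepatocytes, Myod1 (76.8, 69.4 and 69.9) of skeletal muscle and Sox2 (82.8, 86.4 and 70.5) of pluripotent cells. Pou5f1, Nanog and Lin28a of the pluripotent list were above the limit on 1 array each and Zfp42 on 2, none at more than 104. Tubb3 of neurons (125, 102 and 87.0) and Hnf4a of hepatocytes (93.0, 95.6 and 99.4) were above the limit on 2 arrays each, and Cps1 on 1.

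**Figure D3:**
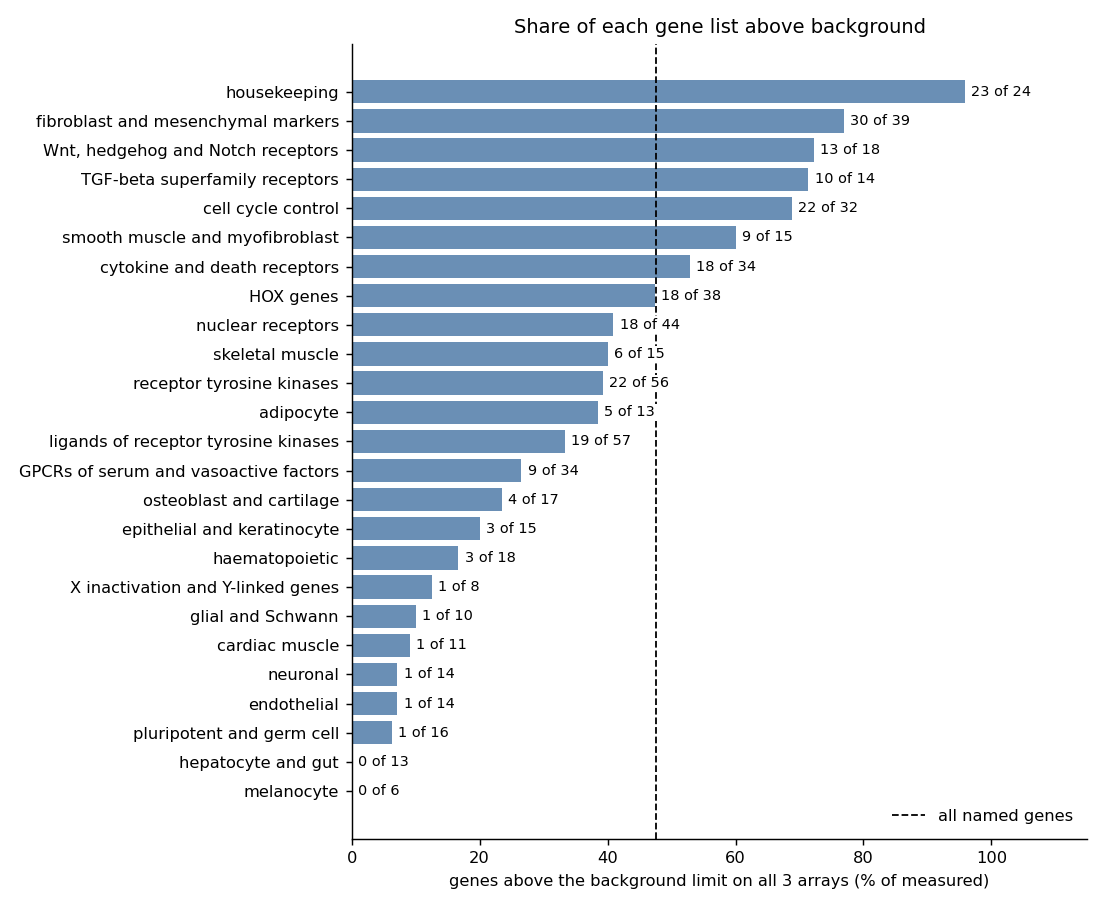
Percent of measured genes above the background limit on all 3 control arrays, for each of 25 gene lists, with the number of genes beside each bar and the share over all named genes, 47.6%, as a dashed line. Housekeeping and fibroblast lists lie to the right of the line, and the lists of most other cell types lie to the left.

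Some lineage genes were nevertheless bright. Krt14, a keratin of the basal layer of the epidermis, read 25302, 15312 and 19797 on its probe, whereas Krt5, its usual partner, read 81.8, 78.0 and 70.7, and Epcam read 77.5, 63.4 and 59.6. Krt8 and Krt18 were below the limit too. The other epithelial genes above it were the claudin gene Cldn7 (145, 127 and 132) and Cdh1, which encodes E-cadherin (133, 113 and 118), both close to the limit. The second probe of Cdh1 was below it on all 3 arrays. Probe sequences were not used here, and whether the Krt14 probe also reads related keratins was not tested.

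Sox9, a transcription factor of cartilage and of several progenitor cells, read 14023, 9136 and 13230.3, and its other probe, at 1673, 1032 and 1543, was also above the limit. The cartilage matrix gene Acan (74.7, 87.3 and 74.9) was below it in every line, and Col2a1 (80.1, 92.8 and 89.1) was above it only in control 2. Sp7, the transcription factor of osteoblasts, was not detectable (71.7, 73.5 and 64.3). The osteocalcin gene Bglap2, which has near-identical copies, read 276, 261 and 206, and its neighbour Bglap was above the limit on 2 arrays. Sox5 (179 ± 15.2) and Alpl (102 ± 2.24) were the other genes of this list above the limit on all 3 arrays. Tnmd was above it on 2 arrays and Col10a1, Comp and Scx on 1 each.

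Dlk1, a membrane protein that marks preadipocytes and restrains fat cell formation, read 26952, 27139 and 23524 on its brightest probe and 12095, 13310.2 and 10424 on its other. Cebpb and Cebpd, which act early in fat cell formation, read 9795, 9249 and 9403 and 1507, 985 and 1247. Lpl, the lipoprotein lipase, read 5558, 5364 and 4663. The later regulators Pparg (75.5, 73.9 and 68.7) and Cebpa (79.1, 86.0 and 71.3) and the fat cell genes Fabp4 (64.2, 69.5 and 67.3) and Adipoq (84.9, 84.3 and 71.2) were below the limit in every line.

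The heart regulator Nkx2-5 read 773, 547 and 622, while the cardiac genes Tbx5, Hand2, Myh6 and Myh7 were below the limit on every array. Gata4 and Nppa were each above it on some arrays only, with a highest value of 99.8. In the skeletal muscle list, 6 of 15 genes (40%) were above the limit, near the 47.6% of all named genes, and 2 with the limit at 5 SDs. Those 2 were the troponin gene Tnnc1 (286, 200.4 and 215) and the actin gene Acta1 (209, 117 and 214). Des (128 ± 11.7), Tnni2 (108 ± 5.27), Pax3 (106 ± 9.59) and Tnni1 (103 ± 2.48) lost the call there, and Myf5 and Myf6 were not detectable. Myog was above the limit on 2 arrays (113, 93.2 and 90.9). Cd34, a surface protein of blood progenitors that some fibroblasts also carry, read 1023, 937 and 1003. Lyz2, the lysozyme of macrophages, read 359, 665 and 236, with control 2 the brightest line. The glutamate transporter gene Slc1a3 of astrocytes read 754, 428 and 495, with Gfap and Aqp4 at background. Of the same list, Mbp was above the limit on 2 arrays (101.9, 102.0 and 85.6) and Aldh1l1 on 1 (100.5, 88.7 and 87.4). Dppa5a (125 ± 9.43), Hba-a1 (145 ± 34.6) and Syp (98.0 ± 1.11) of the pluripotent, blood and neuronal lists were also above the limit, and Syp lost the call at 5 SDs.

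Of 15 smooth muscle and myofibroblast genes, 9 (60%) were above the limit, beside 47.6% of all named genes. Acta2, smooth muscle actin, was among the 25 brightest genes and read 34720.1, 36318 and 34282 on its brightest probe. Of its 6 probes, 4 were above the limit and 2 were below it in every line, the others reading means of 14206, 10700.5 and 8740.1. The tropomyosin genes Tpm1 (11465 ± 643) and Tpm2 (3461 ± 352) and smoothelin (Smtn, 1849 ± 137) were also detected. The markers of differentiated smooth muscle Cnn1 (75.0, 73.0 and 72.4) and Myh11 (69.3, 70.3 and 68.8) were not. Tagln, another smooth muscle marker, was above the limit but close to it (110, 140 and 121). Its other probe was below the limit in every line. Actin genes have close relatives, and which transcripts each Acta2 probe reads was not tested.

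HOX genes encode transcription factors whose order along each of 4 clusters follows their expression along the body axis, and fibroblasts keep a HOX pattern of their site of origin in culture. Of 38 measured HOX genes, 18 (47.4%) were above the limit in all 3 lines, near the 47.6% of all named genes, 16 were below it in all 3 and 4 were mixed. In the A cluster, Hoxa5 read 2213, 2056 and 1689.9, Hoxa7 1404, 1529 and 1131 and Hoxa2 1168, 773 and 631. Hoxa4 read 300.2, 226 and 234, and Hoxa6 was above the limit on 1 array. Hoxa9 (90.0, 80.1 and 83.0), Hoxa10 (68.9, 78.7 and 78.3) and Hoxa11 (74.5, 83.0 and 77.8) were not detectable. Hoxa3 (105, 123 and 107) and Hoxa13 (121, 114 and 97.5) were above the limit on all 3 arrays, but not with the limit at 5 SDs. Control 1 was the brightest line for Hoxa2 and Hoxa4, on intensities not scaled between arrays.

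In the B cluster Hoxb5 (316, 365 and 328), Hoxb6 (231, 267 and 270.1), Hoxb7 (309.6, 263 and 221) and Hoxb9 (386, 271 and 302) were above the limit, Hoxb1, Hoxb8 and Hoxb13 were below it, and Hoxb2, Hoxb3 and Hoxb4 were above it on some arrays. In the C cluster Hoxc6 read 901, 809.7 and 862, Hoxc4 and Hoxc10 had means of 116 ± 19.4 and 116 ± 2.80, and Hoxc5, Hoxc8, Hoxc9 and Hoxc11 were among 6 genes below the limit. In the D cluster Hoxd8 read 2220.3, 1702 and 1831 and Hoxd9 1108, 874 and 821, followed by Hoxd4 (206 ± 36.3) and Hoxd3 (158 ± 31.0). Hoxd11 was above the limit on all 3 arrays (109.7, 92.8 and 105), but not with the limit at 5 SDs, and Hoxd1, Hoxd10, Hoxd12 and Hoxd13 were below it in every line. The brightest HOX genes, Hoxa5, Hoxd8, Hoxa7, Hoxd9, Hoxc6 and Hoxa2, came from the A, C and D clusters.

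**Figure D4:**
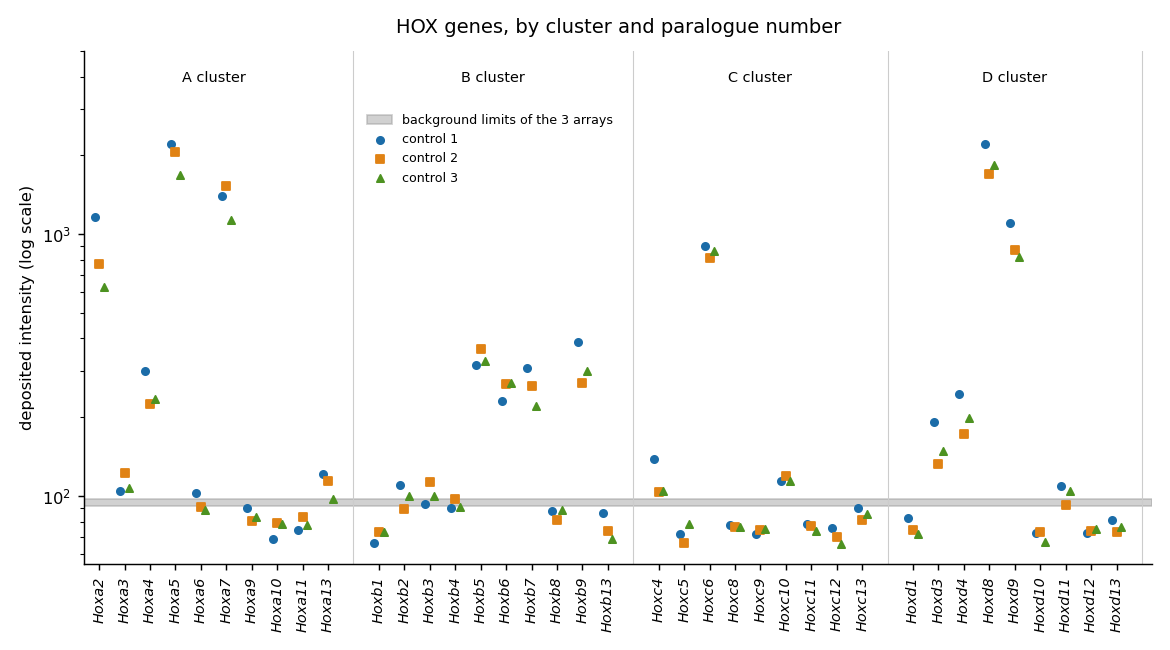
Deposited intensity on a log axis of 38 HOX genes, 1 point per line, grouped by cluster and ordered by paralogue number, with the range of the 3 background limits as a grey band. Hoxa2, Hoxa5, Hoxa7, Hoxc6, Hoxd8 and Hoxd9 lie well above the band in all lines, and most genes with numbers of 10 and higher lie in or under it.

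The array measured 56 of 58 receptor tyrosine kinases. Of these, 22 (39.3%) were above the limit in all 3 lines, against 47.6% of all named genes, 27 were below it in all 3 and 7 were mixed. Axl, a receptor for the vitamin K-dependent protein GAS6, read 14419, 12709 and 16297. Its second probe was far dimmer, at 129.7, 143 and 113, but above the limit on every array. Its relative Tyro3 read 222, 261 and 237, and Mertk was not detectable (79.4, 72.9 and 72.3). Ryk, a Wnt-binding receptor without kinase activity, read 7158, 7409 and 6049 on its brightest probe and 3401, 3296 and 3172 on its other.

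The FGF receptor genes Fgfr1 and Fgfr2 read 399, 311 and 385 and 1531, 1214 and 1629, and Fgfr3 (78.9, 71.5 and 75.6) and Fgfr4 (77.5, 90.6 and 67.2) were below the limit. The other probe of Fgfr1 (86.6, 85.0 and 83.3) was below the limit in every line. Of the 4 probes of Fgfr2, 2 were above the limit in every line, so which splice forms were present cannot be told from these data. Of the VEGF receptors, Flt1 read 1379, 866 and 1397 on 1 probe, its other probe was below the limit in every line, and Kdr (88.2, 86.5 and 82.1) and Flt4 (94.0, 79.9 and 78.5) were not detectable. Besides Pdgfra and Pdgfrb, given above, the PDGF receptor family held Csf1r (86.0, 82.6 and 81.3), Kit (75.5, 70.0 and 74.1) and Flt3 (79.4, 73.3 and 80.0), all below the limit. These are receptors of macrophages, mast and germ cells, and blood progenitors.

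In the insulin receptor family, Igf1r read 1249, 1077 and 1055 and Insr 516, 429 and 463, and Insrr was not detectable. Insr lost the call when the median over its 3 probes was used. In the EGF receptor family, Egfr read 213, 192 and 238 on the brightest of 6 probes, 4 of which were above the limit, and Erbb2 read 356, 444 and 437. Erbb3 (85.4, 79.1 and 66.6) and Erbb4 (71.7, 73.5 and 72.5), receptors of neuregulins, were below it in every line. The collagen receptors Ddr1 and Ddr2 read 1284, 728 and 1267 and 299, 277 and 234. Control 2 was the dimmest of the lines for Ddr1, as it was for Flt1, Fgfr1, Fgfr2 and Pdgfrb. Met, the receptor of hepatocyte growth factor, read 141, 135 and 136.

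EPH receptors bind ephrins on neighbouring cells. Of 13 measured, 4 (30.8%) were above the limit in all 3 lines, beside 47.6% of all named genes. Ephb4 read 781, 676 and 819 and Epha2 380.1, 429 and 479. Epha4 (107, 123 and 121) and Ephb3 (116, 94.6 and 99.4) were close to the limit, and Ephb3 was the nearest to it of all detected receptor tyrosine kinases. The nearest on the other side was Epha6 (84.5, 91.4 and 81.4). Epha1, Epha5 and Epha7 were also below the limit, and Epha3, Epha8 and Ephb1 were mixed. Of the ROR receptors, which act in Wnt signalling, Ror2 read 363, 311 and 518 and Ror1 103, 109 and 117. Epha4, Ephb3 and Ror1 lost the call with the limit at 5 SDs, leaving 19 of the 56 kinases. Lmtk2, a membrane kinase, read 830.5, 1037 and 1117.

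Receptors of nerve and other tissues were at background or mixed between arrays. Ret (79.1, 78.1 and 77.2), Ros1 (76.4, 70.5 and 76.7), Alk (91.0, 85.9 and 85.3) and Ltk (79.9, 80.8 and 77.8) were undetectable in every line, as were Musk and Ntrk3. Ntrk2, Tek and Mst1r were above the limit on 1 array each, with highest values of 99.8, 104 and 97.4. Ptk7 was above it in control 1 and control 3 and below it in control 2, at 132, 86.4 and 123.

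**Figure D5:**
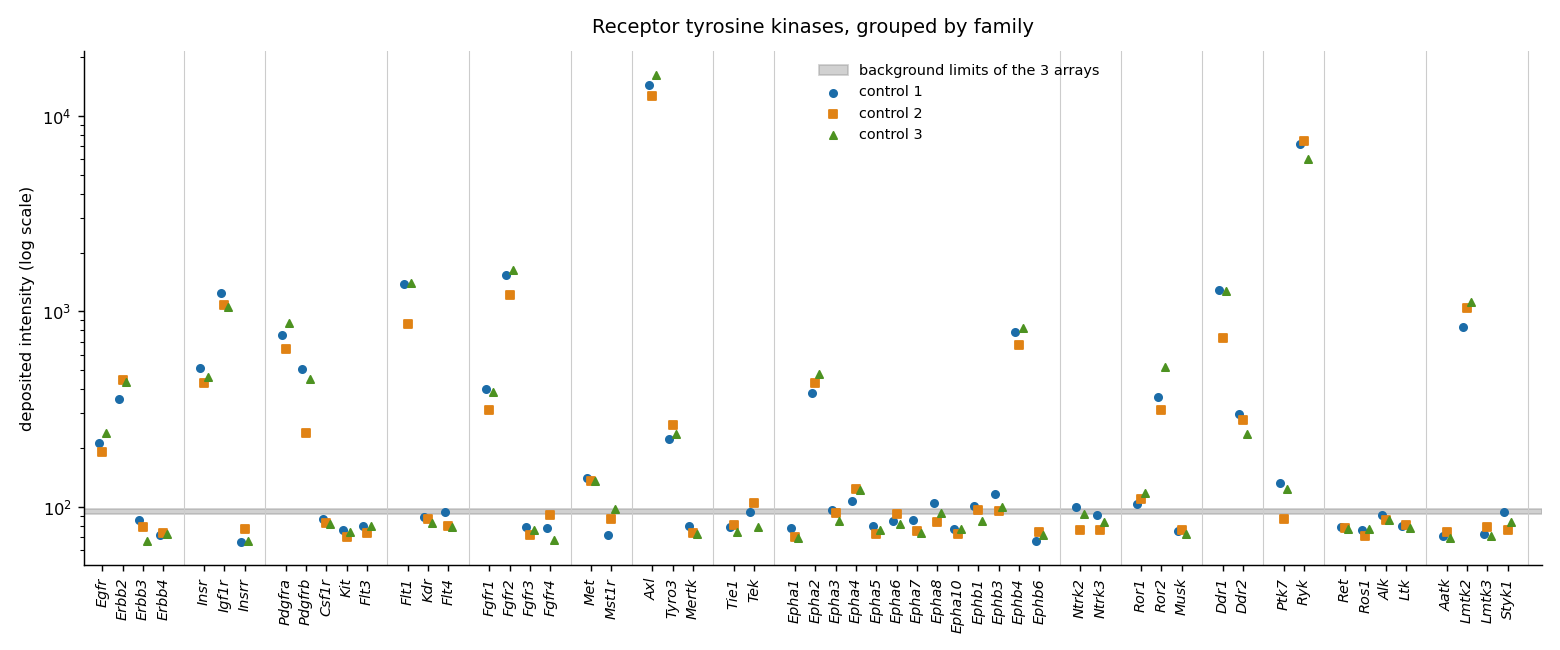
Deposited intensity on a log axis of 56 receptor tyrosine kinase genes, each by its brightest probe, 1 point per line, grouped by family, with the range of the 3 background limits as a grey band. In all lines 22 genes lie above their array's own limit, from Axl with a mean of 14475 to Ephb3 with 103.

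Of the ligands of these receptors, 19 of 57 (33.3%) were above the limit, beside 47.6% of all named genes. Pdgfa read 3483, 3109 and 3929.9 and Pdgfc 688, 648 and 555, while Pdgfb (81.5, 85.7 and 75.4) and Pdgfd (81.5, 77.4 and 68.2) were not detectable. Of the VEGF ligands, Vegfb read 4893, 3983 and 3850.0, Vegfa 1217, 717 and 1329 and Vegfd 2746, 4776 and 2523. Vegfd was brightest in control 2 and Vegfa dimmest there. Of 22 FGF genes, 2 were above the limit, Fgf7 (3200.5, 2643 and 1882) and Fgf10 (2034, 1615 and 1871), which are made by mesenchymal cells and act on epithelia through a form of FGFR2. Fgf1, Fgf4, Fgf5 and Fgf6 were among 15 FGF genes below the limit, and Fgf2 was above it in control 3 alone (90.8, 81.0 and 106).

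Among EGF family ligands, Hbegf read 515, 462 and 607, Nrg1 425, 409 and 433 and Btc 188, 189 and 408, the last brightest in control 3. Egf was close to the limit (109.9 ± 11.1), and Ereg, Epgn and Nrg4 were not detectable. Gas6 and Pros1, both ligands of the AXL family, read 586, 787 and 434 and 761, 949.6 and 787. Bdnf read 2757, 2493 and 3539, with 5 of its 6 probes above the limit. Gdnf read 1311, 779 and 2201, with its other probe below the limit in every line. The signalling receptors of Bdnf and Gdnf, Ntrk2 and Ret, were mixed and below the limit, as given above. Igf1 (86.9, 85.2 and 80.3), Igf2 (80.3, 84.1 and 72.1) and Hgf (80.8, 79.2 and 73.3) were below the limit in every line, whereas the probes of their receptors Igf1r and Met were above it.

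Receptors of the TGF-beta superfamily, in which a type II receptor phosphorylates a type I receptor, were detected in 10 of 14 cases (71.4%), beside 47.6% of all named genes. With the median over the probes of each gene, 7 of the 14 were above the limit, beside 42.3% of all named genes. Amhr2, counted among the 10, was close to the limit (105, 107 and 94.3) and lost the call with the limit at 5 SDs. Of type II receptors, Bmpr2 read 1849, 1799.9 and 2007 and Tgfbr2 1556, 1745 and 1503. Of type I receptors, Tgfbr1 read 1562, 1510.5 and 1544, Bmpr1a 721 ± 43.2 and Acvr1 668 ± 131. Acvr1c, Acvrl1 and Bmpr1b were not detectable, and the co-receptor Tgfbr3 read 1135 ± 80.5. Tgfbr1 varied little, with an SD of 25.9, although 1 of its 4 probes alone was above the limit on all arrays.

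Of 18 Wnt, hedgehog and Notch receptors, 13 (72.2%) were above the limit, beside 47.6% of all named genes. With the median over the probes of each gene, 9 of the 18 were above it, beside 42.3% of all named genes. The frizzled gene Fzd7 read 2384, 1768 and 2464, and Fzd2 (512 ± 132), Fzd5 (493 ± 42.7) and the co-receptor gene Lrp6 (387 ± 45.1) followed, while Fzd8, Fzd9 and Fzd10 were below the limit. Smo, the membrane protein that carries the hedgehog signal inward, read 1129, 1021 and 1010.0, and Ptch1, the hedgehog receptor that restrains it, read 239, 229 and 231. Notch4 read 503, 373 and 1056, brightest in control 3, and Notch1 219.9, 113 and 209.8, dimmest in control 2. Notch2 and Notch3 were not detectable.

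Cytokine and death receptors were above the limit in 18 of 34 cases (52.9%), near the 47.6% of all named genes. The brightest were Tnfrsf12a, the receptor of TWEAK (7489, 5554 and 8310.0), the growth hormone receptor gene Ghr (2869, 2802 and 2721) and Tnfrsf1a, a receptor of tumour necrosis factor (941, 1120.2 and 721). Fas read 457, 949 and 362, brightest in control 2. The interferon gamma receptor genes Ifngr1 (498 ± 68.4) and Ifngr2 (302 ± 8.42) were detected, and of the interferon alpha and beta receptor Ifnar2 was (163 ± 7.22) and Ifnar1 was not (65.1, 77.0 and 65.5). Il6ra (421 ± 69.7) and Osmr (320.1 ± 48.3) were above the limit. Of the receptors of blood cell factors, the erythropoietin receptor gene Epor was above the limit (112, 106 and 103) but not with the limit at 5 SDs, Csf3r was above it on 1 array (97.3, 95.3 and 84.0), and Csf2ra and Csf2rb were below it in every line.

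Of 34 G protein-coupled receptors for serum and vasoactive factors, 9 (26.5%) were above the limit, beside 47.6% of all named genes. F2r, the thrombin receptor, read 8069, 7783 and 9021. S1pr2, a receptor of sphingosine 1-phosphate, read 2978, 2191 and 2707, and S1pr1, S1pr3 and S1pr4 were not detectable. Receptors of lysophosphatidic acid, a growth-promoting lipid of serum, were above the limit in 4 of 5 measured cases, led by Lpar1 (1053, 878 and 913), Lpar6 (610.0, 825 and 610.3) and Lpar4 (525, 799 and 499). Control 2 was the brightest line for Lpar4 and Lpar6. None of 9 peptide and vasoactive receptors passed in all lines, with Bdkrb2, Ednrb, Agtr1a and Agtr2 below the limit on every array and Bdkrb1 and Ackr3 mixed.

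On the cell cycle list, which holds inhibitors and pocket proteins as well as genes that drive division, 22 of 32 genes (68.8%) were above the limit, beside 47.6% of all named genes. Of the 6 measured proliferation markers, 5 were above it. All 3 D-type cyclins were detected, with Ccnd1 at 10281, 9419 and 12375, Ccnd3 at 5692, 3856 and 5509 and Ccnd2 at 2603, 3548 and 2359. The kinase genes Cdk4 (8217, 7196 and 6197) and Cdk1 (8037, 6765 and 6467) and the mitotic genes Top2a (3649, 3225 and 3234), Aurka (3238, 3302 and 3295) and Plk1 (2205, 2442 and 2399) were also above the limit. The probes of Ccna2 (82.8, 88.2 and 90.2), Ccnb2 (83.0, 67.5 and 67.1) and Bub1 (74.6, 72.3 and 70.6), which also act in dividing cells, were below it in every line. The same was true of Sdha (74.4, 65.9 and 75.3), a subunit of the respiratory chain, the 1 of 24 measured housekeeping genes that was not detected.

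Of the INK4 inhibitors, Cdkn2a, the gene of p16INK4a and p19ARF, was below the limit in every line on all 3 of its probes, with 96.7, 86.9 and 88.5 on the brightest. Cdkn2b, its neighbour in the genome, was below it as well (74.2, 73.2 and 88.7). Cdkn2c (2913, 2676 and 2134) and Cdkn2d (486, 498 and 342) were above it. Cdkn1a, the gene of the p53-induced inhibitor p21, read 6868, 9043 and 7685, Cdkn1b 198, 214 and 145, and Cdkn1c was not detectable (83.2, 74.3 and 62.9). Mdm2, which marks p53 for degradation and is itself induced by p53, read 4281, 6726 and 5487. Control 2 was the brightest line for Cdkn1a and Mdm2.

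Few genes differed widely in intensity between the 3 lines. The intensities still hold the background, which narrows the log2 range of dim genes, so wide differences among dim genes may be missed. Of 10607 genes above the limit on at least 1 array, 158 had a range of 1 or more on the log2 scale. Control 2 was farthest from the middle line in 107 of these, control 1 in 24 and control 3 in 27. The 8 genes with the widest range were all brightest in control 2. Arhgap6, a RhoGAP, read 73.6, 2413 and 86.6, a log2 range of 5.03. Snurf, an imprinted gene, read 87.9, 916 and 61.1, and the guanine exchange factor gene Rasgef1a 81.1, 363 and 64.4. These 3 genes were above the limit in control 2 alone by the probe used. Arhgap6 and Snurf each had another, dimmer probe that was above it in every line. Ptn, the growth factor pleiotrophin, read 877, 4194 and 435, and the X-linked homeobox gene Rhox5 422, 2098 and 330.3. C130026I21Rik, Tcp11x2 and the secreted protein gene C1qtnf3 completed the 8, with log2 ranges of 2.86, 2.62 and 2.39. With 1 array per line, no test between lines was made.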

How the data were processed

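Total RNA of each line was labelled and hybridised to a 1-colour Illumina mouse bead array, per the labels' protocols. The authors deposited linear intensities for 45281 probes per array, read with BeadStudio (version not stated) per the submitters' processing notes. Background had not been subtracted, judging by the deposited values, and detection p-values were not used here. The authors' deposited value table holds the same intensities multiplied by 0.949, 1.04 and 1.04, so that each array's mean is 680. The limit lay 3 SDs above the mode on the log2 scale, with the SD taken from values under the mode. A simulation of the limit drew its background from a normal distribution with the same mode and SD. It therefore cannot tell how often real background probes pass. A gene stood by its probe with the highest mean, over 34885 probes with 1 gene, 18 with several and 10378 unnamed, from GEO's platform annotation, with 34807 of the named probes found in RefSeq. Of 618 list genes, 563 had a named probe and the other 55 were not analysed here.

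There was no second group, so no test was made, and only 3 arrays limit the precision. The rule for naming genes covered the given markers, the 25 brightest genes, every detected receptor tyrosine kinase and all cyclin-dependent kinase inhibitors. It also covered up to 4 detected and 4 undetected members of each other list or role, and members that differed between arrays. The 8 genes of widest range and the kinases nearest the limit completed it. The text does not name every gene of the rule, and leaves out some members that differed between arrays. Acan, Pdgfc, Fabp1, Tas1r2, Hoxa3, Hoxa13, Hoxd11, Tnni1 and Pax3 were added outside the rule, once their values were known. So was Tagln, which is not among the 449 genes of the median level or the 212 genes counted for lost calls. The members and lists were chosen with earlier results of these data known. Analysis used Python 3, pandas and numpy, with limma's normexp as an alternative.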

Additional observations from a re-analysis of the deposited data

How the results depend on the processing

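No paired analysis was possible because only the control lines were used and there was no second group to pair them with. The share of named genes above the limit lay between 42.3% (median over a gene's probes) and 52.2% (limit at 2 SDs) over the alternatives, around 47.6%. Detected fibroblast genes numbered 27 to 31 of 39, and detected receptor tyrosine kinases 19 to 26 of 56. Short lists of other cell types moved more. With the limit at 2 SDs, detected genes rose in number from 3 to 5 for epithelium, 1 to 2 for neurons, 1 to 3 for glia, 1 to 2 for heart, 4 to 7 for bone and cartilage, 0 to 1 for hepatocyte and gut and 1 to 3 for pluripotent cells. At 5 SDs, skeletal muscle went from 6 to 2, and neurons and the X and Y list from 1 to 0. With the limit at the 99th percentile of chemosensory receptor probes, neurons and the X and Y list also gave 0, as did the X and Y list with the median over probes. Calling on at least 2 of 3 arrays gave 2 for neurons, 2 for glia, 1 for hepatocyte and gut and 2 for pluripotent cells. Leaving out 1 line gave 1 to 2 for neurons, glia and pluripotent cells, reaching 2 for neurons without control 3, for glia without control 2 or control 3 and for pluripotent cells without control 1, and 0 to 1 for hepatocyte and gut, reaching 1 without control 1.

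The median level over 449 genes was 98.5, 90.0 with the median over probes and 58.4 after normexp background correction, which removes background from every value. It was 95.9 to 99.8 when 1 line was left out. This median pools detected and undetected genes and lies near the limit. Gene by gene, levels were classed as moved for 292 of the 449 genes after normexp and for 154 with the median over probes. In the authors' scaled table, 8 levels were classed as moved. Of 212 named genes above the limit, 23 lost the call at 5 SDs, among them Hoxc4, Hoxc10, Egf, Alpl, Nr3c1 and Uty. With the median over probes 19 lost it, among them Tgfbr1, Cdk1, Cdkn1b, Nrg1, Pdgfc, Fzd5 and Osmr. The authors' scaled table moved no count by over 1.5 times. Genes near the limit cannot be told from background with 3 arrays.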

Other observations

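Nuclear receptors, which are transcription factors switched by steroids, retinoids, lipids and other small molecules, were above the limit in 18 of 44 cases (40.9%), beside 47.6% of all named genes. Of the retinoid, thyroid and vitamin D receptors, 6 of 9 were detected, led by Vdr (2152, 1151 and 1479), Rxrb (1803, 1309 and 1697) and Rarg (1008, 835 and 885). Control 1 was the brightest line for Vdr and control 2 the dimmest. Of the lipid and clock receptors, Ppard read 1595, 1493 and 2158 and was brightest in control 3, while Ppara (78.4, 73.9 and 65.7) was not detectable. Of 8 measured steroid receptors and their relatives, Esrra (816, 1004 and 823) and the glucocorticoid receptor gene Nr3c1 (135, 116 and 105) were above the limit, and Esr1, Nr3c2 and Pgr were below it in every line. Among orphan receptors, Nr2f6 (1769, 1367 and 1629) and Nr2f2 (529, 504 and 436) were detected, and Nr4a1 (69.6, 75.2 and 69.8) was not.

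Of 8 measured genes of X inactivation and the Y chromosome in this mouse line, 1 (12.5%) was above the limit. Of all named genes, 47.6% were above the limit. Xist was below it in every line on all 4 of its probes (90.4, 72.6 and 75.3 on the brightest). Uty read 114, 97.2 and 91.9, close to the limit, on 1 of its 4 probes. The taste receptor gene Tas1r2 was among the 11 chemosensory probes above the limit on all 3 arrays, at 335, 178 and 313. It was named after its values were seen.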
